A study of Komagataella pastoris with 6 samples.

Results

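PDC1 (PAS_chr3_0188), which encodes pyruvate decarboxylase, and ADH2 (PAS_chr2-1_0472), which encodes an alcohol dehydrogenase, form the ethanol branch of the yeast Pichia pastoris (now classed as Komagataella phaffii). They were taken from the count table by these identifiers, so the set holds 2 of the 5040 genes counted, and both had enough reads to be among the 5029 genes tested. The pairing of names and identifiers comes from the definition of the set. The gene table used as reference, for another assembly, shared 0 identifiers with the counts, so gene lengths, positions and sequences were not analysed here.

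Pyruvate decarboxylase removes carbon dioxide from pyruvate with the help of thiamine pyrophosphate and leaves acetaldehyde. Alcohol dehydrogenase then reduces acetaldehyde to ethanol and turns NADH back into NAD+, and the same reaction can run in reverse when ethanol is consumed. A lactate dehydrogenase draws on the same pyruvate and the same NADH, which places it in competition with this branch. P. pastoris is a Crabtree-negative yeast, one that respires rather than ferments when oxygen is at hand, and it is not known as a strong ethanol producer. In S. cerevisiae, the gene called ADH2 encodes the glucose-repressed isozyme that consumes ethanol, and that role is not assumed here for the P. pastoris gene.

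The control strain was KM71-LpDLDH, the laboratory strain KM71 that expresses the d-lactate dehydrogenase gene of Leuconostoc pseudomesenteroides (LpDLDH). The flocculation strain was KM71-ScFlo1-LpDLDH, which expresses the same gene and also the flocculin gene ScFLO1 of S. cerevisiae, whose product makes cells clump. Both transgenes were driven by the constitutive GAP promoter, and each strain was sampled as 3 cultures. The medium was MGYH, which is minimal and holds glycerol and histidine. Cultures began at an OD600 of 0.05, were shaken at 250 rpm and 30 °C, and were harvested at about 21 h. The RNA therefore describes growth on glycerol, and not on the glucose medium in which ethanol was measured. By construction ScFLO1, its plasmid and the HIS4 marker on that plasmid cannot be told apart in this comparison. The 5040 rows all carry P. pastoris identifiers, so the transgenes themselves were not analysed here.

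The 6 libraries held between 10386352 and 12767753 reads on genes. Replicates of a strain were compared by chi-square over genes. In the control strain this gave 16.1 to 20.1 per degree of freedom. In the flocculation strain it gave 11.9 for replicates 1 and 2, 31.0 for 2 and 3, and 68.1 for 1 and 3. Replicates thus differed by more than counting noise, and they were kept as separate cultures. All tested genes together had a median of 0.02 in log2 fold change. Levels are given as CPM (reads on a gene per 1000000 reads of a library, scaled by the TMM method of edgeR), and fold changes as the flocculation strain over the control strain. CPM values are not per gene length, so PDC1 and ADH2 are compared by how they changed and not by how abundant each one was. Because every value is relative to the rest of the library, less of a transcript and more of all others cannot be told apart.

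In the flocculation strain PDC1 was lower by 1.57-fold, while ADH2 was higher by 1.17-fold and did not pass the test. The change of PDC1 passed the adjusted p of 0.05, whereas neither gene reached the study's second criterion, a fold change above 2. The reads of ADH2 relative to those of PDC1 in the same library were 1.83-fold higher in the flocculation strain. A two-sided exact permutation test of the log2 ratio gave p = 0.1, the smallest that 3 libraries against 3 allow. The SD of the log2 ratio between cultures was smaller than that of the log2 CPM of either gene.

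PDC1, the entry step of the branch, was the gene with the most reads in every control library. In KM71-LpDLDH it had 161457, 150091 and 165902 reads in replicates 1, 2 and 3, and in KM71-ScFlo1-LpDLDH the same replicates had 98886, 98815 and 98660 reads. After scaling, these were 13867, 11846 and 14267 CPM in the control strain and 7368, 8527 and 9554 CPM in the flocculation strain. All 3 flocculation libraries lay below all 3 control libraries, with replicate 2 the lowest of the control strain and replicate 3 the highest of the flocculation strain.

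The mean level of PDC1 was 13327 ± 1298 CPM (SD, n = 3) in the control strain and fell to 8483 ± 1094 CPM (SD, n = 3) in the flocculation strain. Its log2 fold change was -0.65, with a standard error of 0.14 from the SDs of log2 CPM and not from edgeR. The adjusted p was 0.00282 by the quasi-likelihood test of edgeR, with Benjamini-Hochberg adjustment over the 5029 genes. Such a call was common in this comparison. An adjusted p under 0.05 was met by 64.2% of tested genes in either direction and by 31.5% in the direction of PDC1, and libraries of the strains did not overlap for 68.9%, among them 33.6% with the flocculation strain lower. By size, 1561 tested genes changed by more than PDC1 on the log2 scale, which is 31.0% of them. In CPM, where abundant genes weigh most, the difference of -4844 CPM was the fall with rank 1 of all tested genes.

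**Figure D1:**
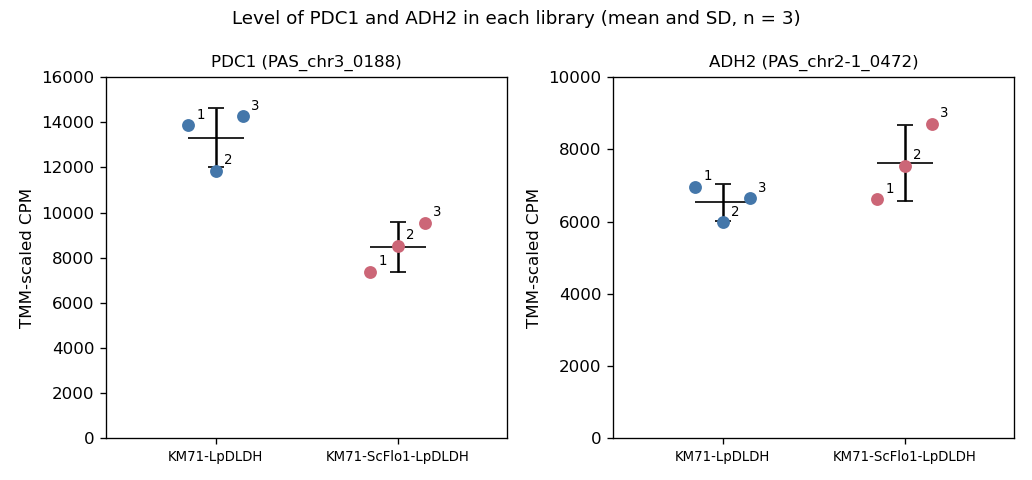
TMM-scaled CPM of PDC1 (left) and ADH2 (right) in each library, with a separate vertical scale from 0 in each panel. Points are libraries numbered by replicate, and the bars are the mean and SD over 3 cultures; the strains are apart for PDC1, at 13327 and 8483 CPM on average, and overlap for ADH2, at 6534 and 7628 CPM.

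As a share of all reads, PDC1 took 1.33%, 1.18% and 1.34% of the control libraries. In the flocculation strain it took 0.791%, 0.891% and 0.95% in replicates 1, 2 and 3. By number of reads, not per length, PDC1 held rank 1 in each of the 3 control libraries and rank 3 in each of the 3 flocculation libraries. The genes that passed it had log2 fold changes of 0.32 and 0.30, neither with an adjusted p under 0.05 with TMM scaling.

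ADH2, the last step of the branch, had 81172, 75791 and 77307 reads in replicates 1, 2 and 3 of KM71-LpDLDH. It had 88884, 87467 and 89999 reads in replicates 1, 2 and 3 of KM71-ScFlo1-LpDLDH. These were 6971, 5982 and 6648 CPM in the control strain and 6622, 7547 and 8715 CPM in the flocculation strain. The strains overlapped, since replicate 1 of the flocculation strain lay below replicates 1 and 3 of the control strain.

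The mean level of ADH2 was 6534 ± 505 CPM (SD, n = 3) in the control strain and 7628 ± 1049 CPM (SD, n = 3) in the flocculation strain. This log2 fold change of 0.22 (standard error 0.13, again from log2 CPM) did not pass the same edgeR test, with an adjusted p of 0.179. The 95% interval of the difference from limma ran from -0.14 to 0.57 on the log2 scale, so these cultures allow anything from a small fall to a rise of that size. For PDC1 the same interval ran from -1.05 to -0.26. A larger change than that of ADH2 was found for 3519 tested genes, 70.0% of them.

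The result for ADH2 depended on how the libraries were scaled. As a plain share of reads, ADH2 took 0.669%, 0.594% and 0.625% of the control libraries and 0.711%, 0.788% and 0.867% of the flocculation libraries. These did not overlap, as was so for 68.9% of tested genes with TMM scaling, a percentage not counted for plain shares. Scaled by total counts, the log2 fold change of ADH2 was 0.33 with an adjusted p of 0.0193 in edgeR. Scaled by upper quartiles it was 0.39 with an adjusted p of 0.0223 in edgeR. How many tested genes had an adjusted p under 0.05 with these scalings was not counted. The same scalings raised the median of all tested genes from 0.02 to 0.13 and 0.19. Relative to that median, the log2 fold change of ADH2 was 0.20 under all 3 scalings, and that of PDC1 was -0.68, -0.68 and -0.67 with TMM, total-count and upper-quartile scaling.

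**Figure D2:**
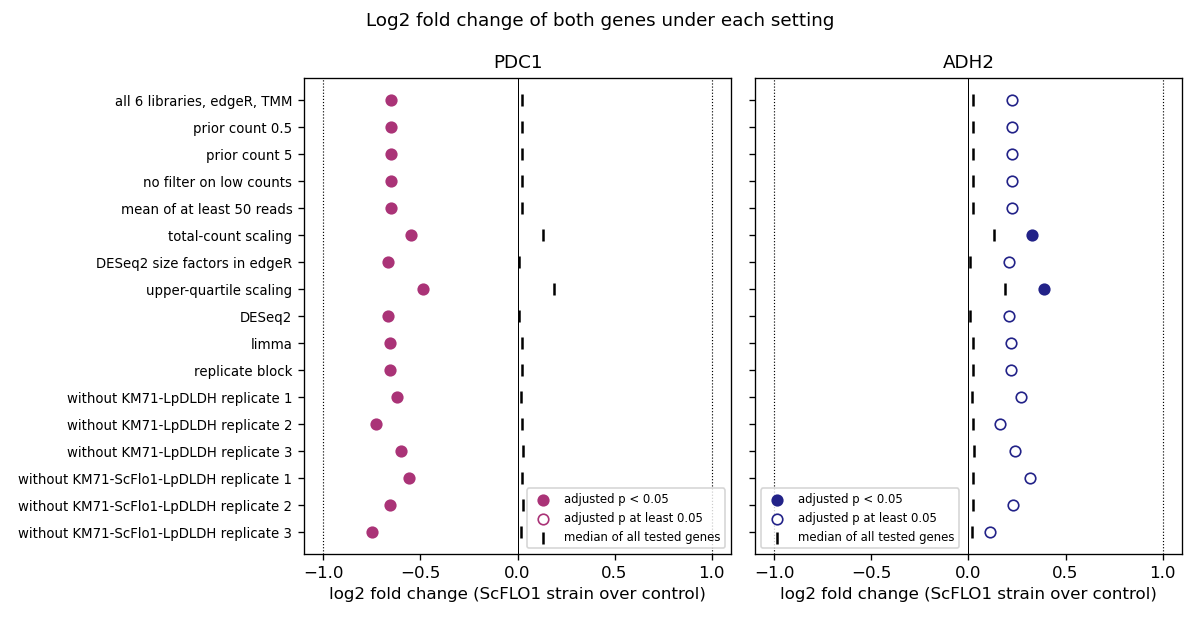
Log2 fold change (flocculation strain over control strain) of PDC1 and ADH2 under each setting, with filled points where the adjusted p was under 0.05 and black ticks for the median of all tested genes. PDC1 stays between -0.75 and -0.49 and is filled throughout, while ADH2 stays between 0.11 and 0.39 and is filled only with total-count and upper-quartile scaling.

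Whether the 2 steps of the branch changed by different amounts was tested with the ratio of ADH2 reads to PDC1 reads within a library, which depends neither on library scaling nor, in its change, on gene length. Replicates 1, 2 and 3 of the control strain had ratios of 0.503, 0.505 and 0.466. Those of the flocculation strain had ratios of 0.899, 0.885 and 0.912. The lowest value of the flocculation strain was therefore well above the highest of the control strain. PDC1 alone also did not overlap between strains, as was so for 68.9% of tested genes. Ratios of other gene pairs were not computed.

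The mean ratio was 0.491 ± 0.0219 (SD, n = 3) in KM71-LpDLDH and 0.899 ± 0.0135 (SD, n = 3) in KM71-ScFlo1-LpDLDH. On the log2 scale the difference was 0.87 (standard error 0.04). A two-sided exact permutation test gave p = 0.1, the smallest that 3 libraries against 3 allow, and 0.2 after Benjamini-Hochberg adjustment over the 2 relations tested this way. When single libraries were left out, the difference stayed between 0.83 and 0.89.

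**Figure D3:**
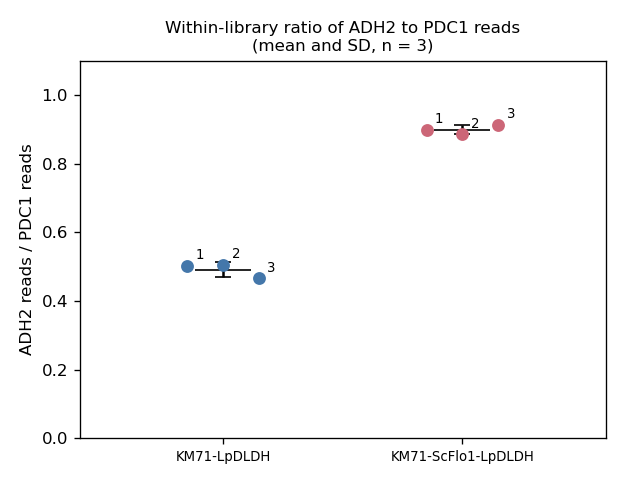
Ratio of ADH2 reads to PDC1 reads within each library, on an axis from 0, with points numbered by replicate and bars for the mean and SD over 3 cultures. The control libraries lie between 0.466 and 0.505 and the flocculation libraries between 0.885 and 0.912.

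Between cultures of the flocculation strain, the CPM of PDC1 and ADH2 had the same order, while their reads did not. In CPM, replicate 1 was the lowest and replicate 3 the highest for both genes, and the SD of the log2 CPM was 0.19 for PDC1 and 0.20 for ADH2. The SD of their log2 ratio, in which the library size cancels, was 0.02 over the same cultures. In the control strain the SDs were 0.14 for PDC1, 0.11 for ADH2 and 0.07 for the log2 ratio, with replicate 2 the lowest for both genes. The library totals of the flocculation strain ran the other way, at 12494758, 11093372 and 10386352 reads in replicates 1, 2 and 3. PDC1 reads were nearly constant over these libraries and ADH2 reads were lowest in replicate 2. Both genes thus took a rising share of reads from replicate 1 to replicate 3, and the cause was not tested. The spread of both genes in the flocculation strain was above the median of tested genes: 24.2% of tested genes had a larger SD than PDC1 and 21.9% a larger SD than ADH2, and the median SD was 0.11. In the control strain 34.4% had a larger SD than PDC1 and 48.7% a larger SD than ADH2, and the median SD was also 0.11.

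Taken as a branch, PDC1 and ADH2 together held 2.00%, 1.77% and 1.97% of the reads in replicates 1, 2 and 3 of the control strain. In the flocculation strain they held 1.5%, 1.68% and 1.82%. The strains overlapped, and the means of 1.91% ± 0.13 (SD, n = 3) and 1.67% ± 0.16 (SD, n = 3) gave p = 0.2 in a two-sided exact permutation test, also 0.2 after adjustment. As this test cannot go below 0.1 with 3 libraries against 3, it does not show whether the summed share differed.

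Both genes stand at the top of the range of reads per gene. Of the 10 genes with the highest mean CPM, PDC1 was the only one with an adjusted p under 0.05 in edgeR with TMM scaling. Of all tested genes, 64.2% had such an adjusted p. The log2 fold changes of the 10 ran from -0.65 for PDC1 to 0.32. With total-count or upper-quartile scaling, 4 of the 10 had an adjusted p under 0.05, with PDC1 lower and the other 3, ADH2 among them, higher. The share of all tested genes was not counted with these 2 scalings. By mean CPM, ADH2 held rank 4 among the 10. Widening to the 50 most abundant genes, 13 were higher and 17 lower at an adjusted p under 0.05 with TMM scaling, beside the 64.2% of all tested genes. Of the 50, 9 had a lower log2 fold change than PDC1, and 15 had a higher one than ADH2. Both criteria together were passed by 11 of these 50 genes, 5 higher and 6 lower, and by 16.4% of all tested genes, but by neither member of the branch.

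**Figure D4:**
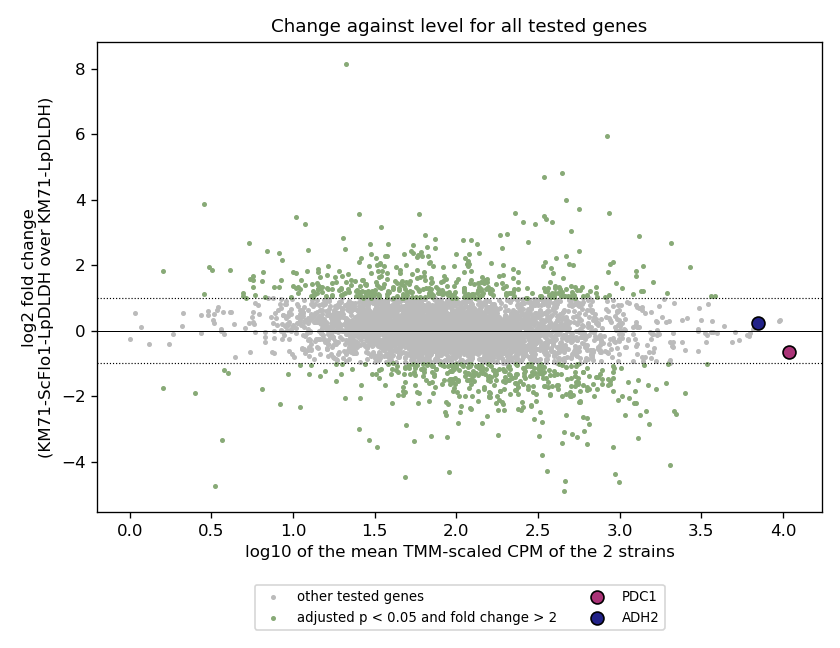
Log2 fold change (flocculation strain over control strain) against the log10 of the mean TMM-scaled CPM for the 5029 tested genes, with genes past both criteria in green and dotted lines at a fold change of 2. PDC1, at -0.65, and ADH2, at 0.22, lie at the right edge, among the most abundant genes and inside the dotted lines.

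Reads of genes next to the members could in principle be counted on them, since the use of strand in counting is not stated by the sources used. The genes with the identifier numbers just before and after PDC1 had between 0.470% and 2.28% as many reads as PDC1 in a library. The first of them was lower in the flocculation strain, with a log2 fold change of -1.05, and the second higher, with 0.53, both with an adjusted p under 0.05 from the edgeR test. Against ADH2, the gene numbered just after it had between 1.85% and 9.46% as many reads. Its level was 594 ± 24.2 CPM (SD, n = 3) in the control strain and 154 ± 6.84 CPM (SD, n = 3) in the flocculation strain, and the log2 fold change of -1.95, past both criteria, was opposite in direction to that of ADH2. The gene numbered just before ADH2 had a log2 fold change of -0.18 and did not pass the test, with an adjusted p of 0.378 in edgeR. All 4 were far less abundant in reads than the member beside them. Adjacent numbers need not mean adjacent positions.

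The genes most like each member were taken by Pearson correlation of log2 CPM over the 6 libraries, as a description that the strain difference itself shapes. For PDC1 these were PAS_chr4_0624 (r = 0.999, log2 fold change -0.63) and PAS_chr3_1091 (r = 0.998, log2 fold change -0.75). With the strain means removed, their correlations with PDC1 were 0.994 and 0.985, in the same libraries by which these genes were picked. In all, 25 genes had an r above 0.99 over the 6 libraries. For ADH2 they were PAS_chr2-1_0434 (r = 0.995, log2 fold change 0.18) and PAS_chr1-3_0207 (r = 0.9899, log2 fold change 0.23), and 1 gene in all had an r above 0.99. With the strain means removed, these correlations were 0.992 and 0.983. The tables used here give none of these 4 identifiers a name.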

How the data were processed

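RNA from 3 cultures each of KM71-LpDLDH and KM71-ScFlo1-LpDLDH was sequenced as paired reads of 150 nt. According to the methods, the authors cleaned reads with fastp, aligned them to the GS115 genome with HISAT2 and used HTSeq-count for reads per gene; versions are not given in the sources used. The deposited table holds counts. It is named as normalized but was treated as raw counts, since values are whole, totals differ, and DESeq2 size factors ran from 0.872 to 1.15 rather than near 1. The number of columns of no sample was 0.

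Genes averaging at least 10 reads were tested (11 left out) in R 4.3.3 with edgeR 4.0.16 (TMM factors 0.941 to 1.07, prior count 0.125, quasi-likelihood test, no covariate), on all genes, with Benjamini-Hochberg adjustment. Calls used an adjusted p under 0.05, alone or with a fold change above 2. Standard errors, SDs and correlations of log2 CPM used a prior count of 2. DESeq2 1.42.0, limma 3.58.1, other prior counts, filters and scalings, a replicate block and the omission of single libraries were the alternatives. The scripts were tested on simulated data. At these depths counting error on a member was at most 0.363% of its count, which is counting error only.

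The members, lists and tests were chosen with earlier results of these data known. Named genes were the members, identifiers next to them, and the 2 genes most like each. A list of other pyruvate, ethanol, acetate, lactate and thiamine genes, to be found by annotation, could not be applied because the reference gene table (ASM170810v1) shared no identifier with the counts. No sequence is shown for the same reason.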

Additional observations from a re-analysis of the deposited data

How the results depend on the processing

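PDC1 kept its direction and an adjusted p under 0.05 in all 16 alternatives, with log2 fold changes between -0.75 and -0.56 as each library was left out (lowest without replicate 3, highest without replicate 1 of KM71-ScFlo1-LpDLDH). Adjusted p-values ran from 5.08e-07 with DESeq2 to 0.0244 in edgeR without replicate 3 of KM71-LpDLDH. ADH2 kept its direction in all 16, between 0.11 and 0.32 with each library left out, a range set by replicates 3 and 1 of KM71-ScFlo1-LpDLDH, and its adjusted p ran from 0.0193 to 0.449 over all alternatives. It passed only with total-count scaling (0.33) and upper-quartile scaling (0.39). These scalings raised the log2 fold changes of both genes and the median of all tested genes. They also raised the higher share of calls from 51.3% to 60.6% and 65.0%. Scaling acts on each library, so the spread between replicates can change too. With total-count scaling PDC1 had a smaller change, a log2 fold change of -0.55, but a lower adjusted p of 0.00115 in edgeR. Genes past both criteria numbered 825, 794 to 886 with each library left out, and 166 with a fold change above 4, since fewer genes pass a stricter criterion. Deviations of same-numbered libraries correlated at -0.13, 0.05 and 0.11, and those of differently numbered ones at -0.25 to 0.28. These values gave no sign that replicate numbers pair the samples, but 3 libraries per strain are too few to exclude it. With the replicate block the log2 fold changes were -0.65 for PDC1 and 0.22 for ADH2, with 829 genes past both criteria, and no call on either gene changed. A pseudocount of 0.5 reads left the difference in the log2 ratio at 0.87. Counting error on either gene was at most 0.363% of its count, well below the spread between cultures in CPM.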

Other observations

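The PDC1 counts of the flocculation strain, 98886, 98815 and 98660 reads, lay within less than 1 counting error (0.318% of the count) of each other, although the library totals behind them ranged from 10386352 to 12494758 reads. The 3 counts of ADH2 in the same libraries, and those of both genes in the control strain, differed by more than their counting error. The similarity was noticed after the values were seen, and its cause was not tested. With nearly constant reads, the share of PDC1 rose as the totals fell, at 0.791%, 0.891% and 0.95% in replicates 1, 2 and 3. Its level over these cultures was 8483 ± 1094 CPM (SD, n = 3).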
